A study of Homo sapiens with 16 samples.

Results

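Matrix metalloproteinases (MMPs) are zinc-dependent proteases that cleave extracellular matrix, and tissue inhibitors of metalloproteinases (TIMPs) bind and block them. The genes described here are MMP1, MMP2, MMP7, MMP10, MMP13, MMP14, MMP15, TIMP1, TIMP2 and TIMP3, taken by gene symbol, which gives 10 of the 42351 genes in the deposited table. They were followed in cells expressing wt MET and in cells expressing MET∆14, the form of the HGF receptor that lacks exon 14, before HGF (0 h) and after 3, 6 and 12 h of HGF. Each of these 8 conditions had 2 replicates, which gives 16 libraries, and all of them came from cells deprived of serum, for 12 h according to the labels, while the paper's methods give a longer time. NCI-H596, a lung adenosquamous carcinoma line, expressed MET∆14, and the labels name A549, a lung cancer line, for wt MET, whereas the paper abbreviates another lung adenocarcinoma line, EKVX, as WT. Each MET status is thus represented by 1 cell line, so the MET status and the line cannot be told apart, and 0 h is the only time without HGF, so HGF and the time that passed cannot be told apart either.

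Most MMPs are secreted or displayed as inactive proenzymes and are activated when a propeptide is removed. MMP1 and MMP13 are collagenases that cleave fibrillar collagens, MMP2 is a gelatinase, MMP10 is a stromelysin and MMP7, also called matrilysin, is a small protease made by epithelial cells. MMP14 and MMP15 are anchored in the membrane, and MMP14 at the cell surface degrades collagen and activates pro-MMP2 in a complex with TIMP2. TIMP1 and TIMP2 are soluble, whereas TIMP3 is held in the matrix and also inhibits ADAM proteases. HGF is a motility and invasion factor for epithelial cells, and secreted MMP genes are textbook targets of AP-1 and ETS transcription factors downstream of growth factor receptors. RNA levels do not report proenzyme activation or protease activity.

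Of the 10 genes, 9 had enough counts to be tested. MMP13 had no count in the 8 wt MET libraries and between 0 and 5 counts in those of MET∆14, and was not tested. Total counts per library ranged from 10158590 to 23909304. Replicates differed most at 12 h with MET∆14, where the chi-square of their counts over its degrees of freedom was 34.5, and next at 0 h with wt MET (9.95), against 2.80 to 4.55 in the other conditions. The summed level of 7 epithelial markers was 1738 to 2519 CPM (counts scaled to the size of the library) with wt MET and 3859 to 5790 CPM with MET∆14. At 0 h, 5 of the 7 were higher and 2 lower with MET∆14, where 40.6% and 39.6% of all tested genes were. Among the 5 higher, the squamous markers KRT5 and TP63 were at 2142 and 163 CPM at 0 h with MET∆14, and at 0.0715 and 0.643 CPM with wt MET. The levels of the 2 lower markers are not given here. The summed level of 7 fibroblast markers was 11.5 to 19.8 CPM with wt MET and 188 to 347 CPM with MET∆14, 2 of them above 10 counts in every MET∆14 library (COL1A1 and COL3A1), while LUM was at 0 in all of those libraries. COL3A1 gave most of the MET∆14 sum at 0 h, 303 CPM of 330 to 342 CPM. COL1A2 and DCN were at 0.0248 and 0.0497 CPM there. The summed level of 7 leukocyte markers was 41.0 to 53.0 CPM with wt MET and 116 to 179 CPM with MET∆14. In each line 2 were above 10 counts in every library, CD68 and ITGAM with wt MET and CD68 and CD14 with MET∆14. At 0 h, CD68 was at 38.2 CPM with wt MET and 147 CPM with MET∆14, and CD14 at 0.252 and 22.0 CPM. ITGAM went the other way, at 9.77 and 2.41 CPM. CD68 gave most of both sums at 0 h. Of its exon length, 81.6% overlaps genes on the same strand, so its level and these sums are uncertain. PTPRC and CD3E were at 0 in all wt MET libraries, whereas none of the 7 was at 0 in all those of MET∆14, and 5 endothelial markers summed to at most 3.22 CPM in any library.

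MMP7, MMP10, MMP1 and MMP13 lie in that order in the MMP cluster of chromosome 11 (hg38), all on the minus strand. MMP7 spans chr11:102520508-102530750, MMP10 chr11:102770502-102780628, MMP1 chr11:102789401-102798160 and MMP13 chr11:102942995-102955732. MMP10 and MMP1 are separated by 8.8 kb. The other genes are on separate chromosomes or far apart: MMP14 at chr14:22836560-22849041, MMP2 at chr16:55389700-55506691, MMP15 at chr16:58025754-58046901, TIMP1 at chrX:47582408-47586789, TIMP2 at chr17:78852977-78925387 and TIMP3 at chr22:32801705-32863041. TIMP1 lies within SYN1 and TIMP3 within SYN3, each on the opposite strand and without shared exon sequence. Of the exon length of MMP1, 8.14% overlaps WTAPP1 on the opposite strand, and of that of TIMP2, 3.61% overlaps CEP295NL on the same strand and 5.91% a long noncoding RNA on the other. Whether the counting used strand is not stated in the sources used here, so these parts of the MMP1 and TIMP2 counts are uncertain.

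RefSeq promoter sequences (GRCh38.p14, 250 bases before the start) matched 6 of the 10 genes by symbol, MMP7, MMP10, MMP14, MMP15, TIMP1 and TIMP3. Those of 4 genes are printed 5′ to 3′ to show the kinds of sequence found: MMP7 and MMP10 from the chromosome 11 cluster, MMP15, which fell in both lines, and TIMP3, which changed in opposite directions in the lines. Capitals mark matches to the AP-1 motif TGANTCA on either strand. The windows are chr11:102530748-102530997 and chr11:102780629-102780878 on the minus strand, and chr16:58025504-58025753 and chr22:32801455-32801704 on the plus strand.
MMP7: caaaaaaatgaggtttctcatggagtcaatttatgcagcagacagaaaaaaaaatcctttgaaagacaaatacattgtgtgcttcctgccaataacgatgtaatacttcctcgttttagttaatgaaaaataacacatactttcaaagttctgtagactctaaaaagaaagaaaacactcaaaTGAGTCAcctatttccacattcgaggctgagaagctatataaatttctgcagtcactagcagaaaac
MMP10: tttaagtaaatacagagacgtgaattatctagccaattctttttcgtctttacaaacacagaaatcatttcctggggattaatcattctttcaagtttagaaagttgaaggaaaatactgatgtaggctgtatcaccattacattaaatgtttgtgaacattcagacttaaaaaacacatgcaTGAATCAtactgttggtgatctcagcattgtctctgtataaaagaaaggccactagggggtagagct
MMP15: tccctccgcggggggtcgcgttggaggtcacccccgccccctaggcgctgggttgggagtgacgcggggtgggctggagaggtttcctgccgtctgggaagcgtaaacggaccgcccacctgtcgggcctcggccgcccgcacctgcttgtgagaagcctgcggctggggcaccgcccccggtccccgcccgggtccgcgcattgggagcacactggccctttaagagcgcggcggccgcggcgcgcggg
TIMP3: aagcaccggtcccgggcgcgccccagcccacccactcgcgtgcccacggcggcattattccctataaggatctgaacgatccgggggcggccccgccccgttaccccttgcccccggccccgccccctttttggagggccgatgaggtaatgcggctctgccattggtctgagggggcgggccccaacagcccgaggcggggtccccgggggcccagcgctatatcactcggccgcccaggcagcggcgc

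The AP-1 motif was present in 2 of the 6 promoters, those of MMP7 and MMP10, and in both it began 67 bases before the start. It is found in 6.6% of 27305 RefSeq promoters of the same length. The same 2 promoters held a TATA box (TATAAA), 30 bases before the start in MMP7 and 31 in MMP10, against 11.1% of all promoters. The GC box GGGCGG was found in the other 4, at 5 places in MMP15, 5 in TIMP3, 2 in TIMP1 and 1 in MMP14, and in 42.3% of all promoters. The ETS motif AGGAAG occurred at 2 places in MMP7 and 1 in TIMP1, and in 28.7% of all promoters. All motifs were searched on both strands, matches of different motifs did not overlap in these promoters, and a match describes the letters only.

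Before HGF, the lines expressed different sets of these genes. With MET∆14, the membrane-anchored proteases MMP14 and MMP15, the inhibitors TIMP3 and TIMP1 and the collagenase MMP1 were higher, and the secreted MMP7, MMP2 and MMP10 were lower. MMP14 was at 228 and 211 CPM in the MET∆14 replicates and at 3.69 and 3.32 CPM with wt MET, a 62.5-fold difference (log2 difference 5.97, SE 0.190, adjusted p = 5.32e-13 in edgeR's quasi-likelihood test, used for every adjusted p below unless another tool is named). TIMP3 was at 191 and 170 CPM with MET∆14 and at 1.16 and 0.566 CPM with wt MET, a log2 difference of 7.70 (SE 0.365, adjusted p = 2.28e-10). Neither gene's groups came near to overlapping.

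MMP15 was at 47.1 and 45.5 CPM with MET∆14 and at 8.61 and 6.72 CPM with wt MET (log2 difference 2.59, SE 0.154, adjusted p = 3.71e-10). The reverse held for MMP7, at 0.652 and 0.596 CPM with MET∆14 and at 18.4 and 17.8 CPM with wt MET (log2 difference -4.85, SE 0.286, adjusted p = 3.56e-10). MMP2 had no count in the 0 h MET∆14 libraries and 38 and 31 counts with wt MET, so it was at least 12.6-fold lower with MET∆14 when 3 counts per library are taken as the floor. MMP10 had 1 and 2 counts with MET∆14 and 11 and 41 with wt MET, a 22-fold ratio in favour of wt MET with an exact 95% interval of 7.12 to 110 that covers counting error only.

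TIMP1 differed little before HGF, at 225 and 221 CPM with MET∆14 and 159 and 185 CPM with wt MET (log2 difference 0.37, SE 0.151, adjusted p = 0.0335). That call was lost with the replicate number as a block (adjusted p = 0.101) and without wt MET 0 h replicate 1, MET∆14 0 h replicate 1 or MET∆14 0 h replicate 2 (adjusted p from 0.0736 to 0.213). MMP1 was at 2.15 and 3.13 CPM with MET∆14 and at 0.217 and 1.49 CPM with wt MET, where the replicates held 3 and 21 counts (log2 difference 1.63, SE 0.510, adjusted p = 0.00868). Without wt MET 0 h replicate 1 the difference was 0.85 (adjusted p = 0.102), without MET∆14 0 h replicate 2 it was 1.34 (adjusted p = 0.0732), and without wt MET 0 h replicate 2 it was 3.60. TIMP2 was at 232 and 222 CPM with MET∆14 and at 222 and 179 CPM with wt MET, and did not pass the test (log2 difference 0.18, SE 0.107, adjusted p = 0.14). It was called when at least 10 counts were required in every library. In total 5 of the 9 tested genes were higher and 3 lower with MET∆14, where 40.6% and 39.6% of all tested genes were, so a difference between these lines was common.

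Levels can be compared between genes only per length, here as CPM per kb of the longest annotated transcript. At 0 h with wt MET, TIMP1 (157) and TIMP2 (55.0) led, followed by MMP7 (13.7), MMP15 (1.89), MMP10 (1.05), MMP14 (0.910), MMP2 (0.703), MMP1 (0.432) and TIMP3 (0.187). The replicates of MMP10 overlapped those of MMP14, those of MMP2 overlapped those of MMP1, and those of MMP1 overlapped those of TIMP3. With MET∆14 the order began with TIMP1 (203), TIMP2 (62.2), MMP14 (57.0), TIMP3 (39.2) and MMP15 (11.4), followed by MMP1 (1.34), MMP7 (0.472), MMP10 (0.0468) and MMP13 (0.0303), and no neighbours overlapped. MMP10 and MMP13 were both at 0.0823 CPM on average there, below the floor of 3 counts, so only their transcript lengths set them apart. Among these 7 MMP genes, MMP7 led at 0 h with wt MET and MMP14 with MET∆14.

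After HGF, TIMP3 was the gene that moved most with wt MET. It was at 1.16 and 0.566 CPM at 0 h, 7.61 and 9.54 CPM at 3 h, 13.7 and 25.9 CPM at 6 h, and 2.29 and 2.69 CPM at 12 h. The lower 0 h value was 8 counts, so the sizes of the folds against 0 h rest on few counts. All 6 libraries after HGF were above both at 0 h, and the highest were at 6 h. The rise was 9.85-fold at 3 h (log2 3.30, SE 0.484, adjusted p = 0.000433) and 22.7-fold at 6 h (log2 4.51, SE 0.423, adjusted p = 5.39e-06). The 6 h level was 2.31-fold above that at 3 h (adjusted p = 0.0371), and the 12 h level 7.97-fold below that at 6 h (log2 -3.00, SE 0.329, adjusted p = 8.22e-05). At 12 h the difference from 0 h was 1.51 in log2 and did not pass the test (SE 0.590, adjusted p = 0.0637). It did pass in DESeq2 (adjusted p = 0.00083), without the filter on low counts (1.04e-05), with the replicate number as a block (0.0284), and without wt MET 6 h replicate 1 or 2 (0.0123 in each case).

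With MET∆14, TIMP3 moved the other way from its higher starting level. It was at 191 and 170 CPM at 0 h, 191 and 169 CPM at 3 h, 104 and 139 CPM at 6 h, and 55.2 and 68.9 CPM at 12 h. At 3 h the groups overlapped with those of 0 h, with a log2 difference of -0.00 (SE 0.207, adjusted p = 1) whose sign changed under another scaling, and at 6 and 12 h the groups no longer overlapped with 0 h. TIMP3 fell by 0.57 in log2 at 6 h (SE 0.208, adjusted p = 0.0417) and by 1.54 at 12 h (2.92-fold, SE 0.217, adjusted p = 0.000117). The 6 h call was lost without any 1 of 7 libraries, wt MET 12 h replicates 1 and 2, MET∆14 0 h replicates 1 and 2, MET∆14 12 h replicates 1 and 2, and MET∆14 6 h replicate 1, with log2 values from -0.38 to -0.66 and adjusted p from 0.0561 to 0.263. It was also lost without both 12 h MET∆14 libraries, an alternative added after the data had been seen (adjusted p = 0.068). The 12 h call held in each of the 16 fits that left out 1 library.

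The difference of the TIMP3 response between the lines, MET∆14 minus wt MET, was -3.30 in log2 at 3 h (SE 0.538, adjusted p = 0.000956), -5.07 at 6 h (SE 0.482, adjusted p = 6.77e-06) and -3.06 at 12 h (SE 0.611, adjusted p = 0.0029). Even at its 6 h maximum, TIMP3 with wt MET (19.8 ± 8.65 CPM, SD, n = 2) was below its lowest level with MET∆14 (62.0 ± 9.65 CPM at 12 h, SD, n = 2).

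The collagenase MMP1 rose after HGF with MET∆14. It was at 2.15 and 3.13 CPM at 0 h, 3.09 and 3.62 CPM at 3 h, 11.8 and 14.6 CPM at 6 h, and 17.9 and 25.7 CPM at 12 h. The 3 h libraries overlapped those of 0 h, and those of 6 and 12 h lay above them. The rise was 4.94-fold at 6 h (log2 2.31, SE 0.346, adjusted p = 9.53e-05) and 8.05-fold at 12 h (log2 3.01, SE 0.345, adjusted p = 1.37e-05), and the step from 3 to 6 h was 1.97 in log2 (adjusted p = 0.00274). The 0.70 step from 6 to 12 h did not pass the test (adjusted p = 0.11). With wt MET, MMP1 stayed between 3 and 36 counts, at 0.534 and 0.566 CPM at 3 h, 0.666 and 0.673 CPM at 6 h, and 1.72 and 0.740 CPM at 12 h, and no time differed from 0 h (adjusted p from 0.466 to 0.731).

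The MMP1 response differed between the lines by 2.66 in log2 at 6 h (SE 0.765, adjusted p = 0.0165) and by 2.43 at 12 h (SE 0.709, adjusted p = 0.0225). This rests on the unequal 0 h replicates of wt MET: without wt MET 0 h replicate 2 (21 counts) the differences were 0.68 (adjusted p = 0.747) and 0.48 (adjusted p = 0.847), and MMP1 with wt MET was then 2.53 above 0 h in log2 at 12 h (adjusted p = 0.0305). The 6 h call was also lost without wt MET 6 h replicate 1 (2.62, adjusted p = 0.0569) or 2 (2.64, adjusted p = 0.0544), and the 12 h call without wt MET 12 h replicate 2 (2.02, adjusted p = 0.0655) or MET∆14 0 h replicate 1 (2.21, adjusted p = 0.0643). The rise of MMP1 with MET∆14 itself was called in each of the 16 fits that left out 1 library.

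MMP10, the stromelysin next to MMP1, was scarce with MET∆14, with 1 and 2 counts at 0 h, 3 and 4 at 3 h, 4 and 23 at 6 h, and 13 and 5 at 12 h. It was called at 6 h (adjusted p = 0.0158) and 12 h (adjusted p = 0.0359), with ratios to 0 h of 8.70 (exact 95% interval 2.68 to 44.8) and 7.33 (2.14 to 38.8) that cover counting error only. The 6 h call was lost without MET∆14 0 h replicate 1 or 2 or 6 h replicate 2 (adjusted p = 0.0825, 0.0799 and 0.336), with a fitted log2 change of 1.72 in place of 2.95 in the last of these, and the 12 h call without MET∆14 0 h replicate 1 or 2 or 12 h replicate 1 (0.142, 0.124 and 0.182). With wt MET it was at 0.796 and 2.90 CPM at 0 h, 1.27 and 1.86 CPM at 3 h, 3.03 and 4.24 CPM at 6 h, and 3.29 and 2.56 CPM at 12 h, and no time passed the test (adjusted p from 0.116 to 0.786). The difference of its response between the lines did not pass at any time (adjusted p from 0.176 to 0.441).

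The epithelial protease MMP7 fell stepwise after HGF with wt MET. It was at 18.4 and 17.8 CPM at 0 h, 14.2 and 12.4 CPM at 3 h, 9.14 and 9.83 CPM at 6 h, and 4.43 and 4.98 CPM at 12 h, and no 2 times overlapped. The 3 h difference did not pass the test (log2 -0.45, SE 0.199, adjusted p = 0.143), whereas MMP7 fell by 0.93 in log2 at 6 h (SE 0.202, adjusted p = 0.00241) and by 1.95 at 12 h (3.86-fold, SE 0.214, adjusted p = 1.23e-05). From 6 to 12 h it fell by 1.02 (adjusted p = 0.00722). With MET∆14, MMP7 held 3 to 14 counts per library, and the 12 h value of -0.99 did not pass (SE 0.544, adjusted p = 0.171). The difference between the lines of 0.96 at 12 h did not pass either (SE 0.643, adjusted p = 0.315).

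MMP15, which is anchored in the membrane, fell in both lines. With wt MET it was at 8.61 and 6.72 CPM at 0 h, 6.28 and 4.45 CPM at 3 h, 4.24 and 3.70 CPM at 6 h, and 2.91 and 3.84 CPM at 12 h. With MET∆14 it was at 47.1 and 45.5 CPM at 0 h, 35.0 and 36.1 CPM at 3 h, 29.0 and 27.2 CPM at 6 h, and 25.0 and 21.3 CPM at 12 h. The 6 and 12 h libraries lay below both 0 h libraries in each line. It fell by 0.94 at 6 h (SE 0.191, adjusted p = 0.00153) and 1.21 at 12 h (SE 0.193, adjusted p = 0.000255) in log2 with wt MET, and by 0.72 (SE 0.133, adjusted p = 0.000441) and 0.99 (SE 0.136, adjusted p = 5.26e-05) with MET∆14. These 4 calls held in each of the 16 fits that left out 1 library. At 3 h the MET∆14 change was -0.38 (SE 0.132, adjusted p = 0.0389), a call lost in DESeq2 (adjusted p = 0.0601) and without any 1 of the MET∆14 0 h, 3 h or 6 h libraries or the wt MET 6 h libraries (adjusted p from 0.0506 to 0.173). The difference between the lines was between 0.12 and 0.22 at the 3 times, with SE of 0.228 to 0.236, and did not pass (adjusted p from 0.52 to 0.801).

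MMP14 had the highest level per kb of the 7 MMP genes with MET∆14 and fell there. It was at 228 and 211 CPM at 0 h, 175 and 169 CPM at 3 h, 144 and 170 CPM at 6 h, and 133 and 148 CPM at 12 h. All libraries after HGF lay below both at 0 h. It fell by 0.48 in log2 at 6 h (SE 0.132, adjusted p = 0.00787) and by 0.65 at 12 h (1.57-fold, SE 0.133, adjusted p = 0.00141), and the 6 h call was lost without MET∆14 0 h replicate 1 (adjusted p = 0.0643) or MET∆14 6 h replicate 1 (adjusted p = 0.095). The 3 h value of -0.35 did not pass (SE 0.132, adjusted p = 0.0542), though it did without the filter on low counts (adjusted p = 0.00766), with at least 10 counts in every library (0.0384), and without wt MET 3 h replicate 1 or 2 or MET∆14 12 h replicate 1 or 2 (0.0121 to 0.0366). With wt MET, MMP14 was at 2.99 to 5.53 CPM in the 8 libraries, and no time passed the test (12 h log2 0.48, SE 0.245, adjusted p = 0.146). The difference between the lines at 12 h was -1.13 (SE 0.278, adjusted p = 0.00836), and without wt MET 12 h replicate 1 it was -0.87 (adjusted p = 0.0986).

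MMP2, the gelatinase that MMP14 activates, was at 1.81 to 2.83 CPM with wt MET and passed the test at no time there (adjusted p from 0.446 to 0.875). With MET∆14 it had 0 or 1 count in every library, which is at the floor, so no change could be detected at this depth. MMP13 was at or near the floor in all 16 libraries, with its highest values, 3 and 5 counts, at 3 h of HGF with MET∆14.

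The soluble inhibitors changed little. TIMP1 with MET∆14 was at 225 and 221 CPM at 0 h, 252 and 258 CPM at 3 h, 278 and 358 CPM at 6 h, and 221 and 330 CPM at 12 h, and the replicates at 6 and 12 h lay far apart. It rose by 0.51 in log2 at 6 h (1.43-fold, SE 0.150, adjusted p = 0.0121). That call was lost without MET∆14 0 h replicate 1 or 2 (adjusted p = 0.0662 and 0.0767) or 6 h replicate 2 (log2 0.31, adjusted p = 0.196). The 12 h value of 0.30 did not pass (adjusted p = 0.128), and was 0.57 without MET∆14 12 h replicate 1 (adjusted p = 0.000992) and -0.02 without replicate 2. With wt MET, TIMP1 was between 159 and 212 CPM and no time passed (12 h log2 0.28, SE 0.151, adjusted p = 0.176).

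TIMP2 with wt MET was at 222 and 179 CPM at 0 h, 225 and 273 CPM at 6 h, and 185 and 190 CPM at 12 h. It rose by 0.31 in log2 at 6 h (SE 0.107, adjusted p = 0.0365) and then fell by 0.41 from 6 to 12 h (adjusted p = 0.0219). The 6 h call was lost with the replicate number as a block (adjusted p = 0.0634), without wt MET 0 h replicate 2 (0.19, adjusted p = 0.247) and without wt MET 6 h replicate 2 (0.18, adjusted p = 0.325). With MET∆14 it was at 232 and 222 CPM at 0 h and 174 and 178 CPM at 12 h, and fell by 0.37 at 12 h (SE 0.107, adjusted p = 0.014), a call lost without MET∆14 0 h replicate 1 (adjusted p = 0.0828). The difference between the lines at 6 h was -0.53 (SE 0.151, adjusted p = 0.0148), lost without wt MET 0 h replicate 2 (-0.42, adjusted p = 0.0508) or wt MET 6 h replicate 2 (-0.41, adjusted p = 0.0756).

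**Figure D1:**
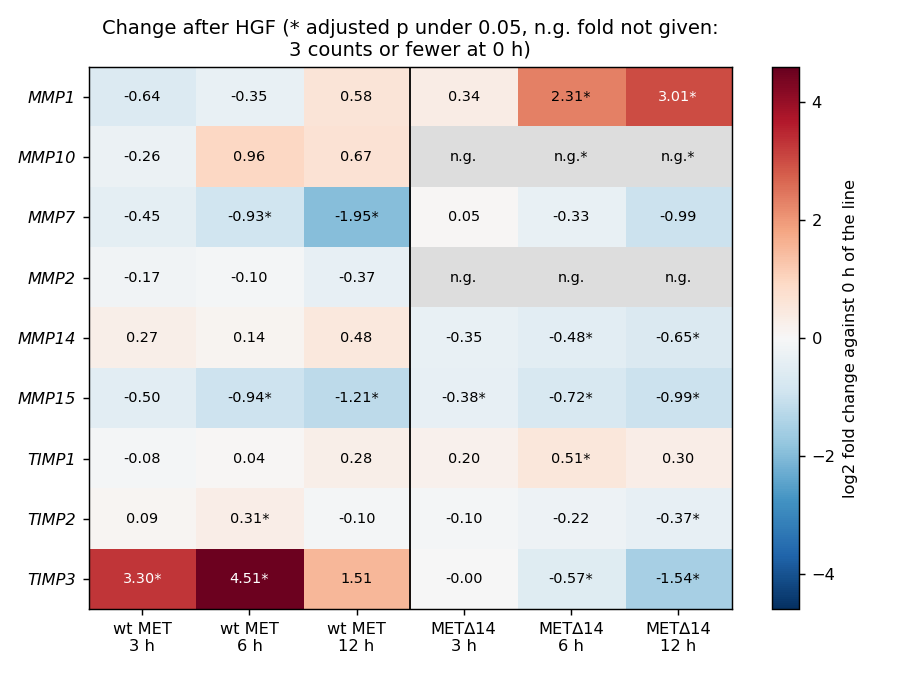
Log2 fold changes of 9 genes (rows) at 3, 6 and 12 h of HGF against 0 h of the same line (columns), with colour for size and direction and an asterisk for an adjusted p under 0.05. TIMP3 is red with wt MET (4.51 at 6 h) and blue with MET∆14 (-1.54 at 12 h). Folds of MMP2 and MMP10 with MET∆14 are not given, since both 0 h libraries there held 3 counts or fewer.

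Counted over the 9 tested genes, wt MET gave 1 higher and none lower at 3 h (TIMP3), 2 higher and 2 lower at 6 h, and 0 higher and 2 lower at 12 h. Over all tested genes, the percentages higher and lower were 10.3% and 7.16% at 3 h, 16.4% and 17.8% at 6 h, and 16.9% and 18.2% at 12 h. With MET∆14 the counts were 0 higher and 1 lower at 3 h, 3 and 3 at 6 h, and 2 and 4 at 12 h, against 15.5% and 16.1%, 21.6% and 22.5%, and 18.3% and 20.1% of all genes. Between neighbouring times with wt MET, 1 gene was called from 3 to 6 h (3.1% of all genes) and 3 from 6 to 12 h (11.6%), and with MET∆14 1 in each step (9.77% and 18.6%). The F test over the 3 times called 4 of 9 genes with wt MET (MMP7, MMP15, TIMP2 and TIMP3), where 40.3% of all genes were called, and 7 of 9 with MET∆14 (MMP1, MMP10, MMP14, MMP15, TIMP1, TIMP2 and TIMP3), where 54.1% were. The 7 became 3 without MET∆14 0 h replicate 1, and 4 without MET∆14 0 h replicate 2, MET∆14 3 h replicate 1, wt MET 3 h replicate 1 or 2, or wt MET 12 h replicate 1 or 2. The shares of all genes above belong to the full fit, and those of the fits without a library are not given here. The median log2 change of the tested genes at 12 h was 0.28 with wt MET and -0.37 with MET∆14, against -0.00 and -0.02 over all genes. These medians are the values of single genes, TIMP1 (not called) with wt MET and TIMP2 with MET∆14. The MET∆14 median counts MMP2, which was at the floor. A shift of the genes as a set was not tested.

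The response differed between the lines at any time for 3 of 9 genes, MMP1, MMP14 and TIMP3, against 37.6% of all genes. At single times 1 gene differed at 3 h, 3 at 6 h and 3 at 12 h, where 17.4%, 30.2% and 24% of all genes did. The 3 became 1 without wt MET 0 h replicate 2 or MET∆14 0 h replicate 1, and 5 without MET∆14 12 h replicate 2. Here too the shares of all genes are those of the full fit. An additive model of line and time fits 1 time course to both lines, and a call in it can come from either line. In it 4 of 9 genes were called, against 30.6% of all genes. They were MMP15 (log2 -1.08 at 12 h, adjusted p = 9.18e-05), MMP7 (-1.76, adjusted p = 0.000503), MMP1 (2.26, adjusted p = 0.00283) and MMP10 (1.09, adjusted p = 0.0381). TIMP3, which moved in opposite directions, was not called there (adjusted p = 0.0565).

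The summed level of the 7 MMP genes per kb fell with wt MET from 18.7 ± 0.491 CPM per kb at 0 h to 14.2 ± 1.39 at 3 h, 12.2 ± 1.2 at 6 h and 8.47 ± 0.408 at 12 h (SD, n = 2), with MMP7 as the largest part. With MET∆14 it was 70.3 ± 3.17 at 0 h, 55.9 ± 1.31 at 3 h, 55.1 ± 5.87 at 6 h and 53.8 ± 4.74 at 12 h, while MMP1 within it went from 1.34 to 11.1. The sum of the 3 TIMP genes was 212 ± 8.53 CPM per kb at 0 h and 242 ± 5.96 at 12 h with wt MET, and 305 ± 7.46 and 313 ± 73.0 with MET∆14. MMP genes thus made 8.09% ± 0.103 of the summed level of the 10 genes at 0 h and 3.39% ± 0.238 at 12 h with wt MET, and 18.7% ± 0.314 and 14.9% ± 1.85 with MET∆14. These sums are given as a description, with no test.

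**Figure D2:**
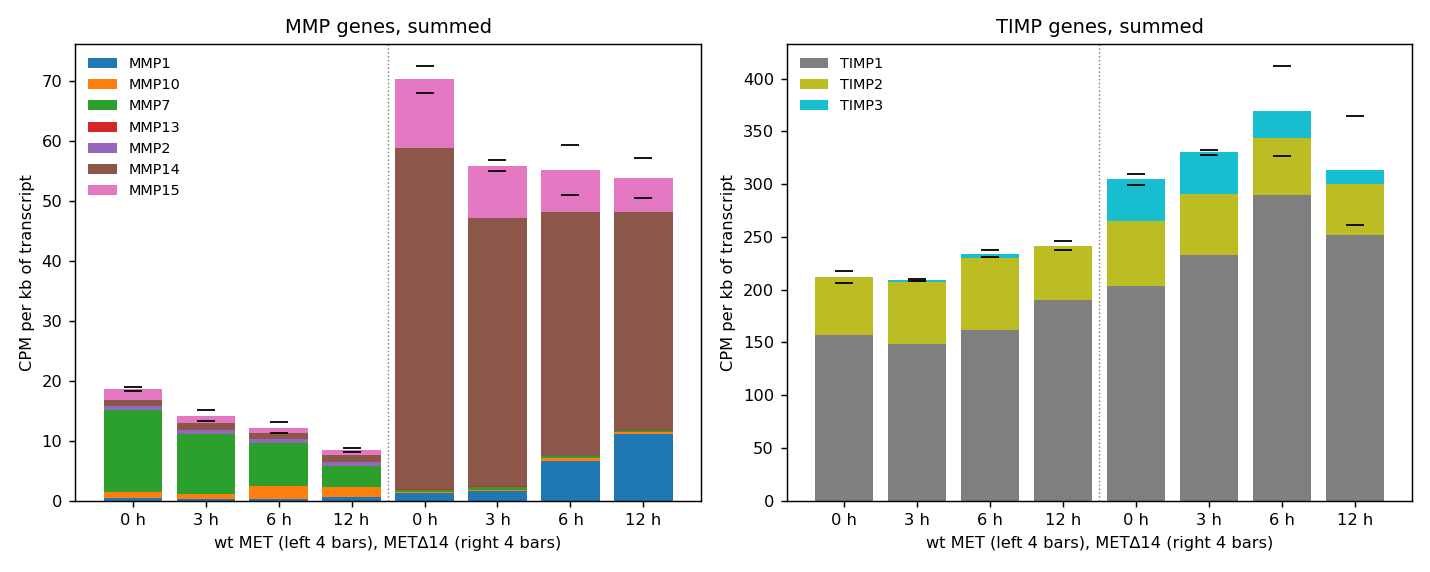
Summed CPM per kb of transcript of the 7 MMP genes (left) and 3 TIMP genes (right) in the 8 conditions, stacked by gene as the mean of 2 replicates, with short lines for the sum in each replicate. MMP7 is the largest part of the wt MET sum and MMP14 makes most of the MET∆14 sum, which is 70.3 at 0 h and 53.8 at 12 h.

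Genes that work with these proteases were taken from lists written by role. Of 16 other MMP genes, 10 were tested, and the F test called 4 with wt MET (40.3% of all genes) and 5 with MET∆14 (54.1%). MMP25, a membrane-anchored MMP of leukocytes, was at 1.01 and 1.63 CPM at 0 h with wt MET and rose there, with 35.7 and 41.7 CPM at 6 h (log2 4.86, SE 0.255, adjusted p = 6.94e-09), while with MET∆14 it was at 0.185 to 1.08 CPM. MMP24 fell with wt MET by 1.23 in log2 at 12 h (adjusted p = 1.67e-06). Of their exon lengths, 30.6% (MMP25) and 22.1% (MMP24) overlaps genes on the opposite strand, so both are uncertain. MMP16, another membrane-anchored MMP, rose by 1.08 at 12 h with MET∆14 (adjusted p = 0.000122).

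Of 7 other MMP inhibitors, 6 were tested, and the F test called 3 for wt MET and 2 for MET∆14, against the same 40.3% and 54.1% of all genes. SPOCK1, a matrix proteoglycan, rose with wt MET by 1.94 in log2 at 12 h (adjusted p = 1.51e-07), and TFPI2, a serine protease inhibitor, rose with MET∆14 by 1.40 at 6 h (adjusted p = 3.24e-05). Of 11 activators and surface partners, 10 were tested, with 4 higher and none lower at 6 h with wt MET (16.4% and 17.8% of all genes) and 5 higher and none lower with MET∆14 (21.6% and 22.5%). At 3 h, 4 were higher and none lower with wt MET (10.3% and 7.16%), and 3 higher and none lower with MET∆14 (15.5% and 16.1%). At 12 h, 4 were higher and 2 lower with wt MET (16.9% and 18.2%), and 5 higher and 2 lower with MET∆14 (18.3% and 20.1%). PLAUR, the urokinase receptor, rose with MET∆14 by 1.45 at 3 h (adjusted p = 1.02e-08), and FURIN, which activates pro-MMP14, rose with wt MET by 1.05 at 6 h (adjusted p = 1.26e-06). PLAT, tissue plasminogen activator, fell with MET∆14 by 1.11 at 12 h (adjusted p = 8.47e-06). The median log2 change of that list at 6 h was 0.33 with wt MET and 0.34 with MET∆14, against -0.05 and -0.04 over all genes.

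The 13 AP-1, ETS and RUNX factors, of a kind known to act on MMP promoters, were all tested. With wt MET 9 were higher and none lower at 3 h (10.3% and 7.16% of all genes), and 7 higher and 2 lower at 12 h (16.9% and 18.2%). At 6 h, 9 were higher and 2 lower there (16.4% and 17.8%). With MET∆14 5 were higher and 2 lower at 3 h (15.5% and 16.1%), and 3 higher and 8 lower at 12 h (18.3% and 20.1%). At 6 h, 4 were higher and 6 lower there (21.6% and 22.5%). FOSB rose with wt MET by 5.21 in log2 at 3 h (adjusted p = 3.79e-10), FOS by 4.2 (adjusted p = 3.04e-11) and JUNB by 3.90 (adjusted p = 3.04e-11). Of 19 matrix substrates, 18 were tested, with 3 higher and 1 lower at 3 h, 5 and 4 at 6 h, and 4 and 5 at 12 h with wt MET. With MET∆14 these counts were 0 higher and 1 lower, 5 and 4, and 4 and 1. With wt MET, the shares of all genes higher and lower were 10.3% and 7.16% at 3 h and 16.4% and 17.8% at 6 h. At 12 h they were 16.9% and 18.2%. With MET∆14 these shares were 15.5% and 16.1% at 3 h, 21.6% and 22.5% at 6 h, and 18.3% and 20.1% at 12 h. The response of 7 of the 18 differed between the lines at 6 h (1 higher, 6 lower with MET∆14), where 30.2% of all genes did. Of all 15067 tested genes, 2470 were higher and 2075 lower in that comparison. TNC, tenascin C, rose with wt MET by 2.11 at 12 h (adjusted p = 8.35e-08), and COL5A1, a collagen chain, by 1.46 at 6 h (adjusted p = 7.61e-05). Of 18 ADAM and ADAMTS proteases, 16 were tested, with 3 higher and 1 lower at 12 h with wt MET (16.9% and 18.2% of all genes) and 1 higher and 5 lower with MET∆14 (18.3% and 20.1%). At 3 h, 3 were higher and none lower with wt MET (10.3% and 7.16%), and 1 higher and 1 lower with MET∆14 (15.5% and 16.1%). At 6 h, 4 were higher and 1 lower with wt MET (16.4% and 17.8%), and 1 higher and 4 lower with MET∆14 (21.6% and 22.5%). ADAM19 rose with wt MET by 2.06 at 6 h (adjusted p = 1.22e-05), ADAMTS1 rose with MET∆14 by 1.17 at 3 h (adjusted p = 2.96e-06), and ADAM10 fell with MET∆14 by 0.42 at 12 h (adjusted p = 0.00122).

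As a description, genes were ranked by Pearson's r of log2 CPM with a member over the 8 libraries of a line, which share 4 conditions. The genes most like MMP7 with wt MET were SEC61A1 (0.998), ALDH3A1 (0.997) and ETHE1 (0.996), of 9360 genes compared. Those most like TIMP3 with MET∆14 were IMMT (0.994), CCDC80 (0.993) and HERC6 (0.993), and those most like MMP15 with MET∆14 were KRT15 (0.993), AARS1 (0.992) and HFE (0.992), of 10112 genes.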

How the data were processed

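RNA from cells expressing wt MET or MET∆14 was sequenced after 0, 3, 6 or 12 h of HGF. The authors aligned reads to hg38 with STAR. The deposited values are whole-number counts per gene, not normalized. The submitters' processing notes list STAR 2.5.0 and RSEM 1.3.2 without a role, so the deposited counts may be rounded estimates. Annotation and strand use are not given in the sources used here. The wt MET columns spell the line name differently from the sample titles and were matched by the rest of the name.

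The tests used edgeR 4.0.16 (limma 3.58.1, R 4.3.3). After filterByExpr, with minimum counts of 10 and 15 in total, counts were scaled by TMM and fitted over all 16 libraries with a robust quasi-likelihood model with 1 coefficient per condition. Contrasts set each time against 0 h and the earlier time of a line, and the responses of the lines against each other, and an additive model of line and time used the formula the paper gives for DESeq2, here in edgeR and for these 2 lines. P-values were adjusted over all 15067 tested genes by Benjamini and Hochberg (threshold 0.05). The replicates are biological duplicates according to the paper. Library sizes for CPM were TMM-scaled. For log2 CPM the prior count was 2. The floor was 3 counts per library. Intervals of count ratios are exact, at a level of 0.95. Transcript lengths, coordinates (1-based, hg38) and overlaps are from GENCODE v44, and promoters from RefSeq, each checked against hg38.

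All 10 members are named. The rule for named genes took at most 3 genes from each other list. These had the largest called change at any time, with mean log2 CPM not under 3 in that line. Similar genes were sought for the 3 members with the largest called change at that level. 1 gene that this rule names is not reported here. The members and lists were chosen with earlier results of these data known. The fits were tested on simulated data. The alternatives were DESeq2 1.42.0, its size factors in edgeR, a block for the replicate number, each library left out, each line alone, a threshold of 1 on the absolute log2 fold change, a prior count of 0.5, and filters of none or of 10 counts per library. A fit without both 12 h MET∆14 libraries was added after the data had been seen.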

Additional observations from a re-analysis of the deposited data

Results flagged for a closer look

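These results are listed because the response to HGF differed between the lines by the test of the difference itself (edgeR, MET∆14 minus wt MET, log2 scale). TIMP3 differed by -3.30 at 3 h, -5.07 at 6 h and -3.06 at 12 h. It was called in each of the 16 fits that left out 1 library, with values from -3.89 to -2.90, -5.66 to -4.58 and -3.65 to -2.63. MMP1 differed by 2.66 at 6 h and 2.43 at 12 h, and by 0.68 and 0.48 without wt MET 0 h replicate 2. MMP14 differed by -1.13 at 12 h and TIMP2 by -0.53 at 6 h. Each line is 1 cell line, so the difference cannot be told apart from that between the lines.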

How the results depend on the processing

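Of 1185 comparisons of 54 single results with an alternative, 1088 kept their direction and side of the threshold, 47 were no longer past it, 23 were newly past it and 27 changed sign, all of values that had not passed. Counts of genes called are given next, without the share of all genes called in the same fit. Without the filter on low counts the response with wt MET went from 4 to 7 genes and the difference between the lines from 3 to 5. With at least 10 counts in every library the response with wt MET was 2, with MET∆14 3 (of 7), the lines before HGF 4 (of 8) and the shared time effect 1 (of 4), since fewer genes were then tested. Only MMP14, MMP15, TIMP1 and TIMP2 reach 10 counts in every library. All 4 were thus called before HGF, TIMP2 among them, which did not pass in the main fit. With the absolute log2 change required to exceed 1, the wt MET response was 2, the MET∆14 response 1 and the difference 1. Over the 16 fits without 1 library, the MET∆14 response ranged from 3 to 7 genes and the difference from 1 to 5, and the cause was not tested.

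The signs that changed were small or of few counts. TIMP3 with MET∆14 at 3 h (-0.00) was 0.0165 in DESeq2, 0.0161 with its size factors, 0.0077 without the filter, 0.0497 with each line alone and 0.0457 without the 12 h MET∆14 libraries, and ranged from -0.0836 to 0.0847 over the fits without 1 library. MMP1 with wt MET ranged from -1.42 to 1.33 at 3 h, -1.14 to 1.62 at 6 h and -0.22 to 2.53 at 12 h, and its difference between the lines at 3 h from -0.99 to 1.76. TIMP2 with wt MET ranged from -0.0307 to 0.25 at 3 h and -0.25 to 0.0643 at 12 h, and TIMP1 with MET∆14 at 12 h from -0.0218 to 0.57.

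Same-numbered replicates of a line did not deviate together (6 pairs per line, correlations of -0.0528 to 0.0345 with wt MET and -0.159 to 0.035 with MET∆14). No pairing by number was thus seen, but these correlations cannot exclude that same-numbered replicates were handled together. With the replicate block the counts, again without the share of all genes, were 3 for wt MET, 6 for MET∆14, 3 for the difference, 7 before HGF and 4 for the shared effect. Depth limits MMP2, MMP7, MMP10 and MMP13 with MET∆14 and MMP1 with wt MET. It also limits TIMP3 at 0 h with wt MET, where the lower library held 8 counts.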

Other observations

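Several related genes fell outside the rule for named genes and are named here after their values were seen. MMP3, a stromelysin that lies beside MMP1 on chromosome 11, had no count in the MET∆14 libraries at 0 h, 4 and 8 counts at 3 h, 27 and 30 at 6 h and 15 and 8 at 12 h, which is at least 1.99-fold, 8.45-fold and 4-fold higher when 3 counts per library are taken as the floor. Its counts with wt MET are not given here. MMP28, an epithelial MMP also called epilysin, was at 58.5 and 57.0 CPM with MET∆14 at 0 h and at 24.9 and 34.5 CPM at 12 h, and fell by 0.97 in log2 (SE 0.156, edgeR adjusted p = 0.000202), while with wt MET it held 0 to 5 counts per library. TIMP4, the remaining TIMP, fell by 12 h in both lines, by 1.04 with wt MET (SE 0.212, adjusted p = 0.00161) and by 0.91 with MET∆14 (SE 0.207, adjusted p = 0.00292), and the lines' responses did not differ past the threshold (0.13, SE 0.297, adjusted p = 0.815). Of the exon length of TIMP4, 14.2% overlaps genes on the opposite strand, so its counts are uncertain.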
